A study of Mus musculus with 8 samples.

Results

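The genes described here are 53 genes of DNA replication and mitosis, taken by symbol from the 21080 genes in the expression tables, and all 53 were found. They fall into 6 groups by role: 14 genes of origin licensing and the replicative helicase, 10 of the sliding clamp, its loader and the DNA polymerases, 4 of deoxynucleotide supply, 7 cyclins and cyclin-dependent kinases, 5 cell cycle transcription factors, and 13 mitotic kinases, checkpoint proteins, motors and chromatin proteins. RNA-seq was done on bone marrow-derived macrophages (BMDMs) of C57BL/6 mice, which are marrow cells grown into macrophages with the growth factor M-CSF. The cKO cells came from Nudt21 fl/fl mice with LysM-Cre, in which the loxP sites flank exons of Nudt21, a gene whose protein directs where messages are cleaved and polyadenylated. The WT cells came from sex-matched littermates that carried LysM-Cre without the floxed deletion, so Cre was present in both genotypes, and LysM-Cre acts in myeloid cells generally. Cells were taken untreated (0 h) or after IFNγ overnight and then LPS for 4 h (4 h), so the effect of IFNγ and that of LPS cannot be told apart. There were 2 samples in each of the 4 groups (WT 0 h, cKO 0 h, WT 4 h, cKO 4 h), each made by pooling the cells of a pair of mice.

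Cells copy their DNA once per division. In G1 the loaders Cdc6 and Cdt1 place the Mcm helicase on origins, Cdc45 and the GINS complex then activate it, and polymerases held by the Pcna clamp copy the strands with nucleotides made by Rrm1, Rrm2, Tyms and Tk1. E2F factors are known to drive many replication genes at the start of S phase, and the MuvB complexes with Mybl2 and Foxm1 drive many mitotic genes later. BMDMs divide while M-CSF is present, and LPS and IFNγ are known to stop macrophages from dividing.

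The promoters of the list carried different short elements according to role. RefSeq promoter windows on GRCm38.p6, from 250 bases before to 50 bases after the start, were found for 42 of the 53 genes, which gave 44 windows. The E2F letters searched for were TTTCGCGC, TTTGGCGC and TTCCCGC on both strands, and these patterns can overlap. They were found in 38.64% of the 44 windows and in 5.327% of all 32851 windows. The cell cycle homology region (CHR) was searched for as TTTGAA or TTCGAA on both strands, the second of which reads the same on either strand. It was found in 43.18% of the windows and in 19.23% of all windows. The CCAAT box, searched for by those letters, was found in 75% against 37.41%. The E2F letters were in 7 of 10 licensing genes and 5 of 8 clamp and polymerase genes with a window, and in 0 of 11 mitotic genes. The CHR letters were in 10 of 11 mitotic genes, 4 of 10 licensing genes and 1 of 8 clamp and polymerase genes. A match is a description of the letters and does not show that a factor binds. The stretches below show both elements in genes described later, each read 5′ to 3′ on the strand of the gene and lying before its start, with the element in capitals.

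Mcm5, E2F letters, chr8:75109345-75109374, plus strand: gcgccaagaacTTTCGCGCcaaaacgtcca
Mcm6, E2F letters, chr1:128359734-128359763, minus strand: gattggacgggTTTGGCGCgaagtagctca
Cdk2, E2F letters on the opposite strand, chr10:128705173-128705202, minus strand: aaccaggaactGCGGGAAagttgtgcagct
Rrm1, E2F letters, chr7:102441617-102441646, plus strand: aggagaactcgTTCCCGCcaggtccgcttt
Cdk1, E2F letters, chr10:69353025-69353054, minus strand: tttccgctcccTTTCGCGCtctgcgctccc
Cdk1, CHR letters, chr10:69352966-69352995, minus strand: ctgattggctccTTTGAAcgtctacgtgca
Mki67, CHR letters, chr7:135716478-135716507, minus strand: ttagcgccagaaTTTGAAccgccgttttgg
Ccnb2, CHR letters, chr9:70421704-70421733, minus strand: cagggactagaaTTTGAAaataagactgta
Cdc20, CHR letters, chr4:118437344-118437373, minus strand: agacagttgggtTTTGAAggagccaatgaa

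Cdk1 held both elements, as did 4 other genes of the list, although E2f2 among them held each in a different window. The E2F letters alone were in 11 genes, the CHR letters alone in 14 and neither in 12. Genes that share an element did not all move alike in these data. Mki67 and Cdc20 both hold CHR letters, and they moved in opposite directions.

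Values are StringTie read coverage per base, scaled so that each sample sums to 1000000 (normalized coverage), a level per length that can be compared between genes. The deposited coverage summed to between 14950347 and 17954882 over all genes of a sample. The targeted gene matched the labels: at 0 h Nudt21 coverage was 45.6 and 40.5 in WT against 9.51 and 9.71 in cKO, and at 4 h it was 35.2 and 38.5 against 8.20 and 6.42. The macrophage markers summed to between 7432 and 8156 at 0 h and between 4066 and 4286 at 4 h, although Lyz2, which gives the Cre driver its name, was only at 29.2 to 77.5. These sums hide opposite differences at 0 h, where 3 of the 8 markers were called lower in cKO (Csf1r, Adgre1 and Fcgr1; background 4.01%) and Cd68 was at 2889 and 2711 in WT against 4169 and 4136 in cKO. At 4 h 1 marker was called higher (Cd68, at 794.9 and 876.3 in WT against 1430 and 1605 in cKO; background 12.7%) and 1 lower (Adgre1, at 797.3 and 889.6 against 555.4 and 500.3; background 6.42%). Their part in the results was not tested. Of the other marker lists, the T cell gene Cd3e was at or near 0 in every sample, while Cd247 and Lck of the 5 T cell genes brought that list to 10.4 and 13.4 in WT and to 27.4 and 29.1 in cKO at 4 h. Cd247 was called higher in cKO at 4 h, at 9.04 and 10.2 in WT against 22.8 and 25.7, so this list moved with genotype there, and its part in the results was not tested. The 7 markers of neutrophils and their precursors summed to between 969 and 1610, nearly all of it S100a8 and S100a9. Elane, a granulocyte precursor gene, was at 20.7 to 26.8 at 0 h and 5.06 to 6.92 at 4 h, and the part of such cells in the results was not tested. Low markers of other lists were also called between genotypes. At 4 h the progenitor gene Cd34 was lower in cKO, at 5.76 and 7.56 in WT against 3.947 and 3.5. Of the dendritic cell genes, Xcr1 was lower (1.124 and 3.503 against 0.2671 and 0.1291) and Zbtb46 higher (0.4237 and 0.4738 against 0.9534 and 1.332). At 0 h Lck was lower, at 0.3327 and 0.4486 against 0.02797 and 0.07961. The part of these genes in the results was not tested either.

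The WT 4 h libraries lay apart for these genes. All 53 of 53 had higher coverage in WT 4 h replicate 2 than in WT 4 h replicate 1. Of all 12304 genes tested, 76.3% did. Over all genes tested, the median coverage was 8.65 in WT 4 h replicate 1 and 10.2 in WT 4 h replicate 2. It was 10.5 and 10.1 in cKO 4 h, so by this measure WT 4 h replicate 1 lay apart. The median log2 gap between the WT 4 h samples was 0.77 for the 53 genes and 0.19 for all genes tested. The gap was smallest for Ccne1 (0.03) and largest for Ccnb1 (1.41), and 8 genes differed by more than 1. The median absolute gap of the 53 genes was 0.20 in WT 0 h, 0.11 in cKO 0 h and 0.21 in cKO 4 h. Nothing in the labels marks either WT 4 h sample, so the calls and medians between genotypes at 4 h are also given without each of them.

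**Figure D1:**
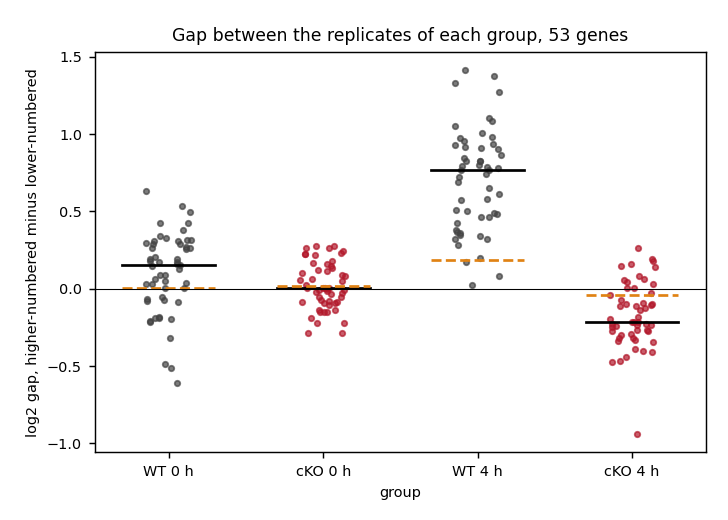
Each point is 1 of the 53 genes, and the vertical axis gives the log2 gap between the 2 replicates of a group (higher replicate number minus lower). Black lines are medians of the 53 genes and dashed lines medians of all genes tested. All points of WT 4 h lie above 0, with a median of 0.77 against 0.19 for all genes.

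In untreated BMDMs every gene of the list was detected at a coverage above 1. The median gene was at 6.31 and 5.82 in WT and at 6.47 and 6.10 in cKO. Pcna, the clamp that tethers polymerases to DNA, was by far the highest, at 357 and 338 in WT, which was 35.7% and 33.4% of the sum of all 53 genes. The next levels were those of Cdt1 (61.1 and 58.1), the clamp loader subunit Rfc2 (54.5 and 57.9) and the helicase subunit Mcm6 (46.7 and 51.6). Rfc2 shares 15.1% of its exon bases with Lat2 on the opposite strand. The study's methods name the NEBNext Ultra RNA Library Prep Kit and no step that keeps the strand. Reads from such overlaps could therefore be counted for either gene. The lowest was Ttk, the kinase at the head of the spindle checkpoint, at 1.07 and 1.31. After stimulation, 7 of the 53 genes were below 1 in WT replicate 1, 4 in WT replicate 2 and 7 in each cKO sample.

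**Figure D2:**
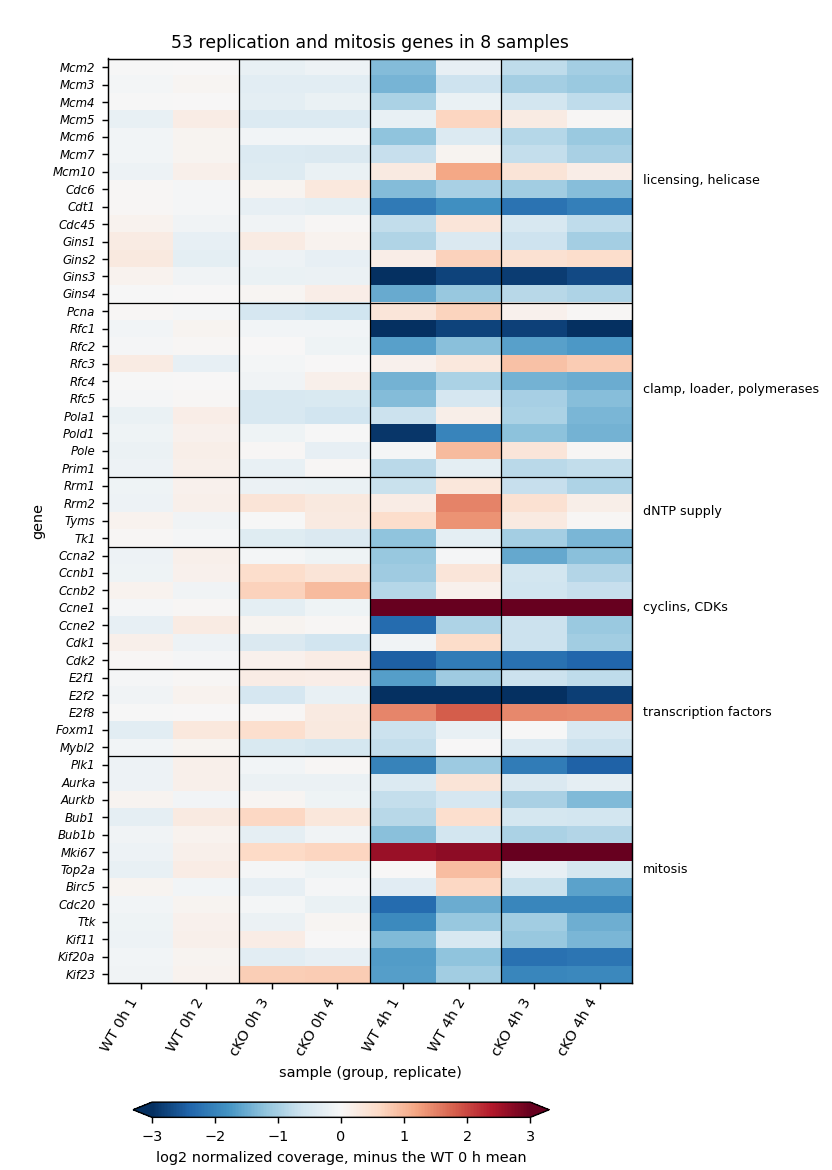
Rows are the 53 genes by role and columns are the 8 samples. Colour gives log2 normalized coverage minus the mean of WT 0 h, with red above and blue below, and values past 3 take the end colours. Ccne1, Mki67 and E2f8 are red in all 4 stimulated samples, and Gins3, Rfc1, E2f2 and Cdk2 are blue in all 4.

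Loss of Nudt21 in untreated cells was accompanied by a higher level of Mki67 and by no other called change. A gene was called when the fold change was above 1.5 and the adjusted p was under 0.05, with limma fitted to all 8 samples and Benjamini-Hochberg adjustment over all 12304 genes. By this rule 1 of 53 genes was higher, against a background of 3.88% of all genes, and 0 were lower, against 4.01%. At an unadjusted p under 0.05 with the same fold, 3 were higher (background 5.97%) and 0 lower (background 7.19%). Mki67, at chr7:135689784-135716361 on the minus strand of GRCm38, encodes Ki-67, the protein that coats mitotic chromosomes. Its coverage was 12.6 and 15.8 in WT against 21.2 and 22.1 in cKO. The groups did not overlap, and 28.6% of all genes were likewise apart with cKO higher. The log2 difference was 0.62 (SE 0.13, adjusted p = 0.0393). The call was lost without WT 0 h replicate 1 (log2 0.45, adjusted p = 0.113), without cKO 0 h replicate 3 (0.64, adjusted p = 0.163) and without cKO 0 h replicate 4 (0.59, adjusted p = 0.215). It was also lost with a pseudocount of 1 (0.58, a fold under the threshold), without the filter on low values (adjusted p = 0.055) and with the 4 samples at 0 h alone (adjusted p = 0.0775), where Kif23 was called.

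Other mitotic genes at 0 h varied in both directions. Kif23, a kinesin of the central spindle at chr9:61915905-61946774, was at 3.91 and 4.53 in WT against 7.12 and 7.15 in cKO. Its log2 difference of 0.75 (SE 0.20, adjusted p = 0.0734) was not called, but it was after the samples were set to equal medians (0.75, adjusted p = 0.0279). Ccnb2, cyclin B2, was at 6.31 and 5.42 against 9.43 and 11.4, with a log2 difference of 0.82 (SE 0.31, adjusted p = 0.158). A named pseudogene, Ccnb2-ps, could share its reads, and Ccnb1, Pcna and Tyms have such copies too. Plk1, the polo kinase that drives mitotic entry, had the smallest difference of the mitotic genes (-0.02). Kif20a, another kinesin of cytokinesis, was at 4.45 and 5.0 against 3.79 and 3.93 (log2 -0.28). Over the 13 mitotic genes the median log2 difference was -0.05, with 9 below 0.

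No replication gene of the list was called in untreated cKO cells. Of the 14 licensing and helicase genes 11 were below 0, with a median of -0.19, and of the 10 clamp and polymerase genes 9 were below 0, with a median of -0.09. The median over all genes tested was -0.02, that over 30 other replication genes was 0.03, with 14 below 0, and the nucleotide genes were split 2 and 2. Pcna, at chr2:132249162-132253314, was outside the call rule, at 357 and 338 in WT against 244 and 229 in cKO. These groups did not overlap, and 33.7% of all genes were likewise apart with cKO lower. The log2 difference was -0.55 (SE 0.13, adjusted p = 0.0554). After median-centring its adjusted p was 0.0167, with the fold still under the threshold. Pola1, the catalytic subunit of DNA polymerase alpha, was at 5.33 and 6.98 against 4.34 and 4.09 (log2 -0.52, adjusted p = 0.336). Among the licensing genes the largest differences were those of Mcm7 (-0.42) and Mcm5 (-0.41), and the smallest was that of Cdc45 (-0.03). Of the nucleotide enzymes, Tk1, which salvages thymidine, differed by -0.40, Rrm2 by 0.34 and Tyms by 0.12. Cdk1, the kinase that drives mitosis, was at 23.8 and 19.0 against 15.8 and 14.2 (log2 -0.50, adjusted p = 0.279), and Ccne2 had the smallest difference of the cyclins (0.06). Among the transcription factors the differences were -0.49 for Mybl2, 0.40 for Foxm1 and 0.15 for E2f8.

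At 4 h the cKO cells had more Mki67, Pold1 and E2f1 and less Cdk1 and Kif20a than WT. These were 3 of 53 genes higher, against a background of 12.7%, and 2 lower, against 6.42%. After median-centring, 2 were higher (background 9.57%) and 10 were lower (background 10.2%). The share of members called lower lay below the background in the first case and above it after median-centring, and the share called higher lay below it in both. The count of lower genes rested on WT 4 h replicate 2. Without it 0 genes were lower (background 4.97%) and 6 higher (background 17.8%), and without WT 4 h replicate 1 23 were lower (background 9.15%) and 2 higher (background 9.86%). In each of these fits the remaining WT 4 h sample is assumed to vary like the other groups.

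The higher level of Mki67 at 4 h was called in every alternative run. Its coverage was 85.9 and 91.1 in WT against 172.7 and 173.3 in cKO. The log2 difference was 0.97 (SE 0.13, adjusted p = 0.00564), and it was 1.01 without WT 4 h replicate 2 and 0.92 without WT 4 h replicate 1. Pold1, the catalytic subunit of the lagging-strand polymerase at chr7:44532746-44548849, was at 1.52 and 3.01 in WT and 5.17 and 4.53 in cKO. Its log2 difference of 1.14 (SE 0.30, adjusted p = 0.0374) was 1.61 without WT 4 h replicate 2 and 0.67 without WT 4 h replicate 1, and called in both. It was no longer called without cKO 4 h replicate 3 (1.04, adjusted p = 0.147) or cKO 4 h replicate 4 (1.23, adjusted p = 0.121). E2f1, an activator of S phase genes at chr2:154559407-154569892, was at 8.75 and 13.04 against 17.5 and 16.2. Its log2 difference was 0.65 (SE 0.19, adjusted p = 0.0497), close to the threshold, and 0.37 without WT 4 h replicate 1 (adjusted p = 0.062). It was not called without cKO 4 h replicate 3 (adjusted p = 0.182) or cKO 4 h replicate 4 (adjusted p = 0.15), and its fold fell under the threshold after median-centring (0.53) and quantile normalization (0.45). With the 4 samples at 4 h alone, Mki67 was the only called gene of the list, and without the filter on low values Pold1, E2f1 and Cdk1 were not called.

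The called lower genes at 4 h were Cdk1 and Kif20a. Cdk1, at chr10:69335146-69352938, was at 19.9 and 31.3 in WT against 13.6 and 10.3 in cKO. The groups did not overlap, and 25.9% of all genes were likewise apart with cKO lower. The log2 difference was -1.07 (SE 0.26, adjusted p = 0.0286). It was -0.74 without WT 4 h replicate 2 (adjusted p = 0.0654), -1.27 without cKO 4 h replicate 3 (adjusted p = 0.0595) and -0.87 without cKO 4 h replicate 4 (adjusted p = 0.147). Kif20a was at 1.40 and 1.97 in WT and 0.92 and 0.95 in cKO, with a log2 difference of -0.77 (SE 0.17, adjusted p = 0.0213). It was -0.54 without WT 4 h replicate 2, with a fold under the threshold, -0.75 without cKO 4 h replicate 3 (adjusted p = 0.096) and -0.79 without cKO 4 h replicate 4 (adjusted p = 0.099). Its fold was also under the threshold on the deposited scale (-0.57) and with a pseudocount of 1 (-0.47). Kif20a shares 29.3% of its exon bases with Cdc23 on the opposite strand. Birc5, or survivin, had the largest difference of the mitotic genes, at 4.92 and 9.62 against 3.88 and 1.98 (log2 -1.28, SE 0.40, adjusted p = 0.0609). Its 2 cKO samples were themselves far apart. The Birc5 difference was -0.805 without WT 4 h replicate 2, smaller in size than that of Mki67 (1.009). It was -1.758 without WT 4 h replicate 1. The checkpoint kinase Bub1b had the smallest difference with all samples (-0.02), which was 0.325 and -0.367 in the same order. After median-centring the 10 lower genes were Cdk1, 6 mitotic genes (Kif20a, Birc5, Top2a, Plk1, Kif23 and Aurkb) and the replication genes Pola1 (-1.05), Tyms (-0.91) and Mcm7 (-0.67).

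By role, the direction at 4 h differed, and for most groups its sign turned on the choice of WT sample. The median of all genes tested was 0.08, which was 0.18 without WT 4 h replicate 2 and -0.03 without WT 4 h replicate 1. Set against these, the medians of the mitotic, nucleotide, and clamp and polymerase genes lay below that of all genes in each of the 3 fits and that of the transcription factors above it, while those of the licensing genes and the cyclins and kinases lay above it without WT 4 h replicate 2 and below it otherwise. The mitotic genes had a median of -0.38, with 11 of 13 below 0. Without WT 4 h replicate 2 their median was 0.05, with 6 below 0, and without WT 4 h replicate 1 it was -0.77, with 12 below 0. The 4 nucleotide genes were all below 0, with a median of -0.60, which was -0.07 without WT 4 h replicate 2 and -1.17 without WT 4 h replicate 1. Tyms, which makes thymidylate, was at 7.75 and 13.8 against 6.48 and 5.52 (log2 -0.78, adjusted p = 0.0851), and Rrm1 differed by -0.65 and Tk1 by -0.45. The licensing genes had a median of -0.10, which became 0.26 without WT 4 h replicate 2 and -0.45 without WT 4 h replicate 1. Among them Mcm7 (-0.54) and Gins4 (0.44) differed most and Cdc6 least (-0.02). The clamp and polymerase genes had a median of -0.24 (0.09 without WT 4 h replicate 2 and -0.50 without WT 4 h replicate 1), with Pola1 at -0.92 and Rfc1 at 0.13. The 7 cyclins and kinases had a median of -0.28 (0.21 and -0.76 in the same order), with Ccna2 at -0.81 and Cdk2 at -0.04. The transcription factors had a median of 0.20 (0.42 and -0.01), with E2f2 at 0.51 (adjusted p = 0.0788) and Mybl2 at -0.16.

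**Figure D3:**
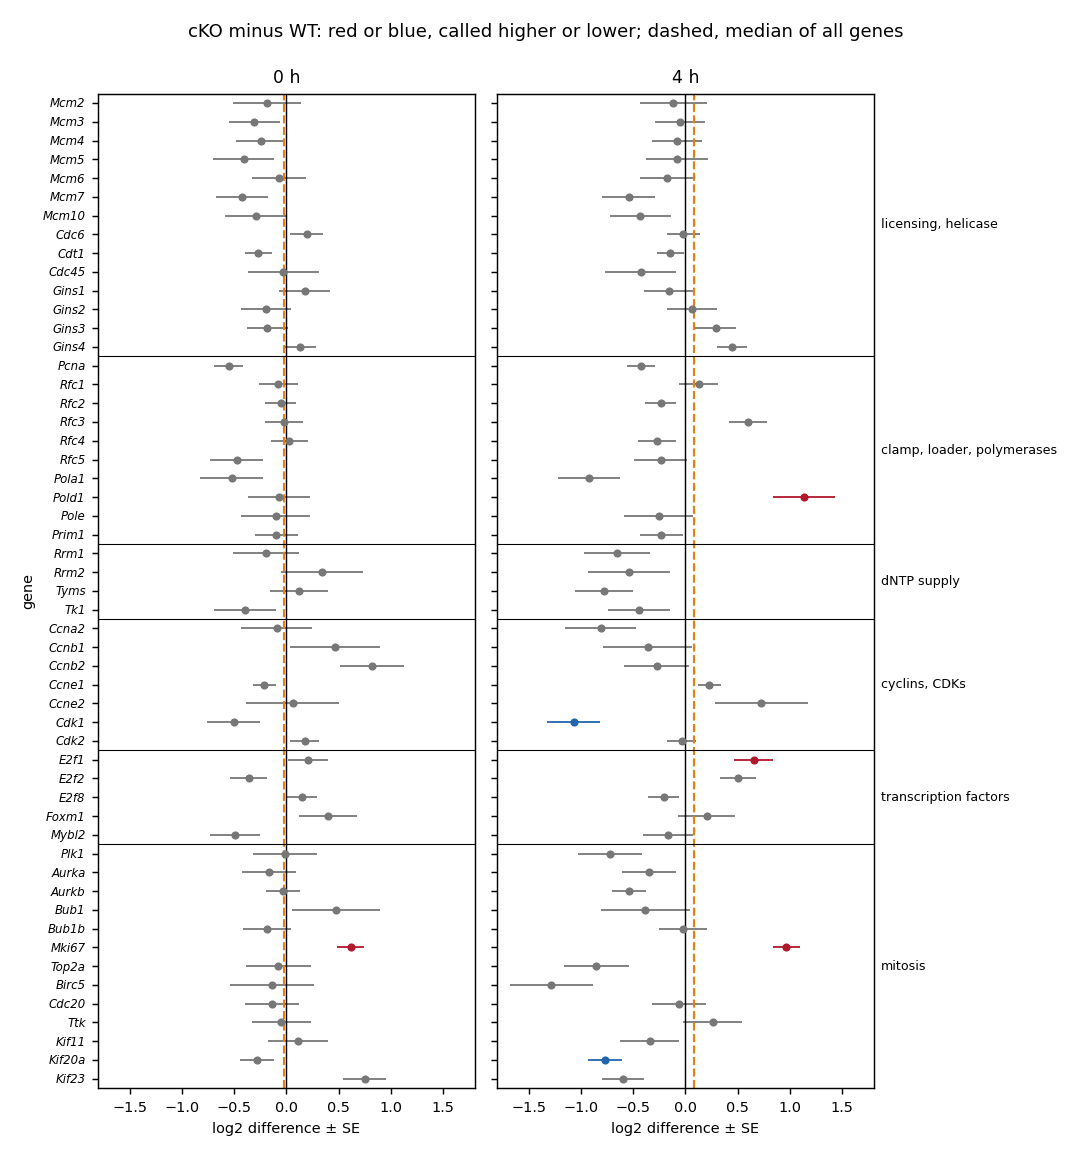
Points give the log2 difference of cKO minus WT for each gene at 0 h (left) and 4 h (right), and bars give the SE from limma (n = 2 per group). Red and blue points passed the call rule, and the dashed line is the median of all genes tested (-0.02 and 0.08). Mki67 is red at both times, and Cdk1 and Kif20a are blue at 4 h.

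On stimulation the genes moved in both directions, and how many count as lower depends on the scale. At equal totals the median of all genes fell by 1.07 on the log2 scale in WT and fell by 0.97 in cKO. On that scale, 24 of the 53 genes were lower in WT (background 62.3%) and 4 higher (background 13.9%), and in cKO 28 were lower (background 60.8%) and 6 higher (background 14.4%). With the medians of the samples set equal, 7 genes were lower in WT (background 29.7%) and 22 higher (background 33.2%). In cKO 10 were lower (background 29.4%) and 14 higher (background 30.4%). With all samples, the shares of members called lower lay below the background on both scales. In WT, 36 of the 53 genes lay above the median of all genes, and 30 did in cKO. In a bulk sample, fewer dividing cells and less of a message per cell cannot be told apart. WT and cKO comparisons are given side by side, and each uses its own samples.

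The genes that rose on both of these scales and in both genotypes were Ccne1, Mki67 and E2f8. Ccne1, the cyclin that partners Cdk2 at the start of S phase (chr7:38097984-38107534), was at 3.05 and 3.16 in WT at 0 h and at 36.3 and 37.0 at 4 h. In cKO it went from 2.51 and 2.83 to 40.8 and 45.2. The log2 change was 3.52 (SE 0.11, adjusted p = 1.96e-06) in WT and 3.96 (adjusted p = 1.41e-06) in cKO. Mki67 rose by 2.64 in WT (adjusted p = 8.00e-06) and by 2.99 in cKO (adjusted p = 5.88e-06). E2f8, an E2F that represses its targets (chr7:48866429-48881596), was at 3.60 and 3.61 in WT at 0 h and at 10.2 and 12.9 at 4 h. Its log2 change was 1.64 in WT and 1.29 in cKO, where it went from 3.70 and 4.34 to 10.1 and 9.76. E2f8 shares 11.21% of its exon bases with Gm2788 on the opposite strand, whose coverage was at most 0.31.

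Pcna had the highest coverage of the list in every sample, also after stimulation, at 443.5 and 555.3 in WT and 382.1 and 357.3 in cKO. Its log2 change was 0.52 in WT (adjusted p = 0.0107, under the fold threshold) and 0.64 in cKO (adjusted p = 0.00414). Tyms rose in WT (log2 0.94, adjusted p = 0.0175) and differed by 0.04 in cKO. The WT change of Tyms was 1.35 without WT 4 h replicate 1, and 0.53 without WT 4 h replicate 2, where it was not called. Without WT 4 h replicate 1, 10 genes were called higher in WT (background 14.1%) and 18 lower (background 59%). Without WT 4 h replicate 2, 3 were higher (background 12.9%) and 36 lower (background 64.8%), so the share called lower then lay above the background. In cKO, Rfc3 (0.85) and Gins2 (0.69) were also called higher. Gins2 shares 67.32% of its exon bases with Gse1 on the opposite strand, so its coverage is uncertain. Ccne2, Rfc4, Ccna2 and Rfc5 share 17.42%, 12.65%, 12.49% and 10.69% of theirs with an opposite-strand gene.

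Genes that fell on both scales in both genotypes came from most roles. E2f2, an activator E2F (chr4:136172394-136196057), was at 4.24 and 4.86 in WT at 0 h and at 0.28 and 0.39 at 4 h, and in cKO it went from 3.19 and 3.86 to 0.47 and 0.55. The log2 change was -3.43 (SE 0.17, adjusted p = 8.60e-06) and -2.56 (adjusted p = 2.88e-05). Gins3, a subunit of the helicase complex (chr8:95633453-95645060), went from 3.57 and 3.11 to 0.24 and 0.40 in WT, a log2 change of -3.07 (adjusted p = 2.10e-05), and changed by -2.59 in cKO. Rfc1, the large subunit of the clamp loader, went from 30.5 and 34.4 to 3.23 and 4.64 in WT (log2 -3.03) and changed by -2.83 in cKO. Cdk2 went from 28.3 and 26.7 to 4.97 and 6.33 in WT (log2 -2.28), and changed by -2.49 in cKO. The loader Cdt1 went from 61.1 and 58.1 to 13.6 and 16.5 in WT (log2 -1.99), and changed by -1.86 in cKO. Cdc20, the activator of the anaphase-promoting complex, changed by -1.90 in WT and by -1.83 in cKO. Ccne1 and its kinase Cdk2 therefore moved in opposite directions, as did the E2F genes E2f8 and E2f2.

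Some falls passed on both scales in 1 genotype. Pold1 went from 11.1 and 13.4 to 1.52 and 3.01 in WT (log2 -2.45) and from 11.1 and 12.1 to 5.17 and 4.53 in cKO (log2 -1.24), and after median-centring only the WT change was called. Kif23 went from 7.12 and 7.15 to 1.004 and 1.03 in cKO (log2 -2.70) and changed by -1.36 in WT. Plk1 went from 3.21 and 3.49 to 0.72 and 0.55 in cKO (log2 -2.25) and changed by -1.54 in WT. Kif20a changed by -1.94 in cKO and by -1.45 in WT, and Rfc2 by -1.62 and -1.44. After median-centring these 4 were called in cKO alone, and the difference between the genotypes is tested below. At equal totals some genes changed least within their role in WT, in cKO or in both. Among them were Cdk1 (0.23 in WT, -0.33 in cKO) and Aurka, a spindle pole kinase (-0.01 and -0.19). Cdc45 (-0.19 and -0.59) and Mybl2 (-0.35 and -0.03) were others. Without WT 4 h replicate 1 the WT changes of Cdk1, Aurka, Cdc45 and Mybl2 were 0.56, 0.38, 0.36 and 0.01. Without WT 4 h replicate 2 they were -0.10, -0.41, -0.74 and -0.71. Mcm5 (0.22 and 0.55) and Mcm10 (0.72 and 0.58) were not called at equal totals and were called higher after median-centring. Their WT changes at equal totals were 0.65 and 1.17 without WT 4 h replicate 1. Without WT 4 h replicate 2 these were -0.22 and 0.27.

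**Figure D4:**
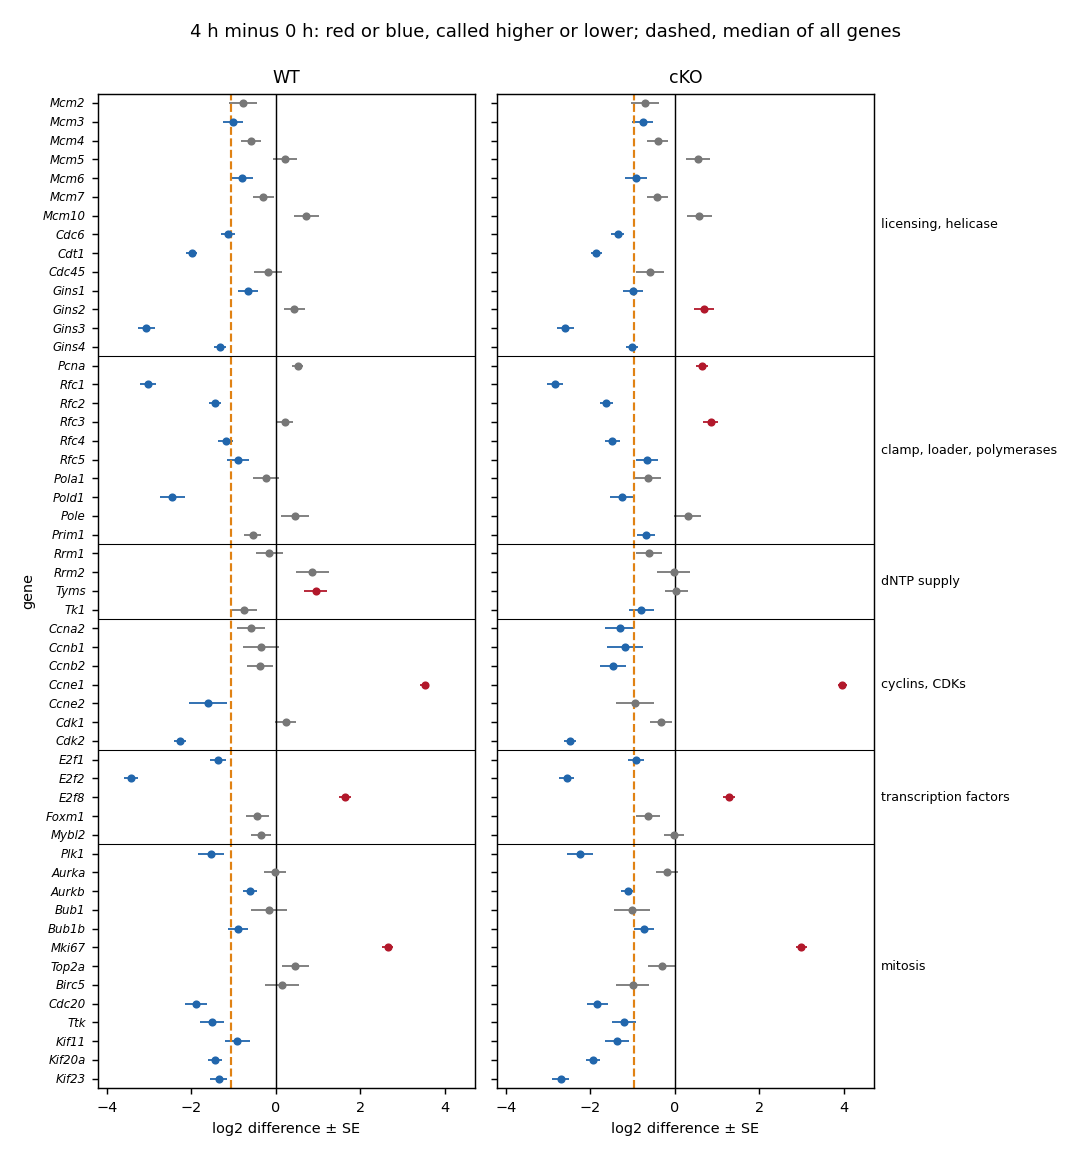
Points give the log2 difference of 4 h minus 0 h for each gene in WT (left) and cKO (right), with bars for the SE (n = 2 per group). Red and blue points passed the call rule at equal totals, and the dashed line is the median of all genes (-1.07 and -0.97). Ccne1 lies far to the right in both panels at 3.52 and 3.96, and E2f2, Gins3 and Rfc1 lie to the left of the dashed line in both.

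The interaction of genotype and stimulation asks whether the change on stimulation differed between WT and cKO. It was called for 0 of 53 genes in the positive direction (background 4.41%) and 0 in the negative direction (background 1.54%) by limma with Benjamini-Hochberg adjustment. At an unadjusted p under 0.05 there were 3 positive genes (Ccne1, E2f2 and Pold1; background 17.4%) and 2 negative genes (Kif23 and Ccnb2; background 8.23%). Kif23 came closest to a call, with an interaction of -1.34 (SE 0.29, adjusted p = 0.0511). After median-centring it was the only called gene, at -1.48 (adjusted p = 0.024). The cKO samples lay above the WT samples at 0 h and below them at 4 h. The interaction of Kif23 at equal totals was -1.04 without WT 4 h replicate 2 and -1.65 without WT 4 h replicate 1. When each of the other samples was left out in turn, Kif23 was not called every time. Ccnb2 had an interaction of -1.09, which was -0.60 without WT 4 h replicate 2 and -1.58 without WT 4 h replicate 1. The median interaction was -0.14 over the 53 genes and 0.10 over all genes tested. Of the mitotic genes 9 of 13 were below 0, with a median of -0.49, and all 4 nucleotide genes were below 0, with a median of -0.67. Without WT 4 h replicate 2 these were 8 of 13 with a median of -0.19 and 2 of 4 with a median of -0.10, and the median of the 53 genes was 0.27, against 0.21 over all genes. They were 12 of 13 (-0.72) and 4 of 4 (-1.14) without WT 4 h replicate 1, where the medians were -0.46 over the 53 genes and -0.02 over all genes.

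**Figure D5:**
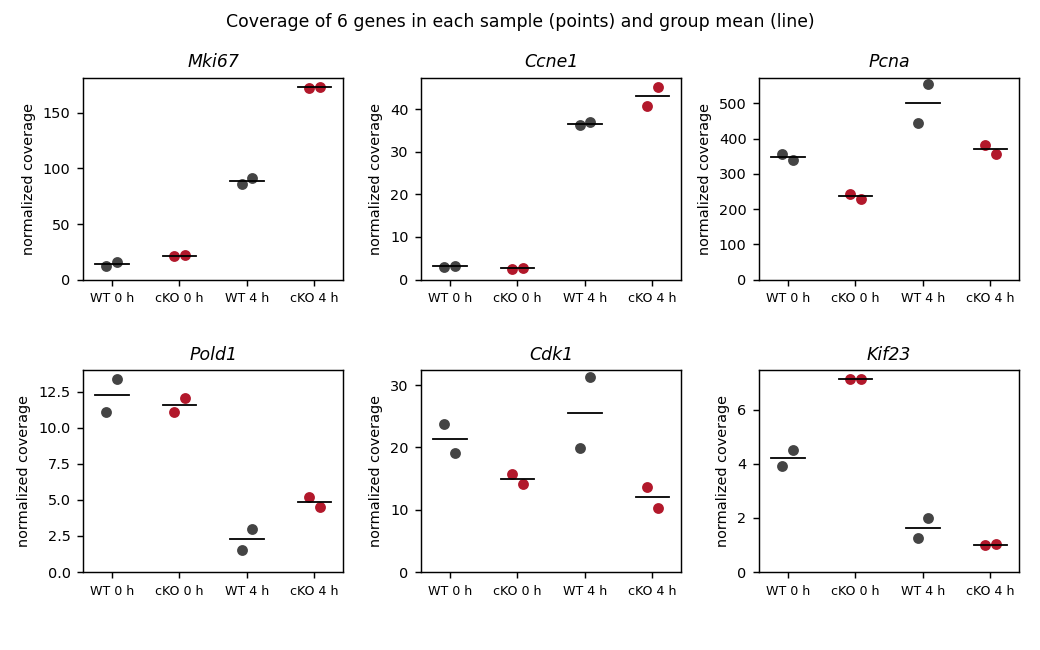
Normalized coverage of Mki67, Ccne1, Pcna, Pold1, Cdk1 and Kif23 in each sample (points, axes from 0) with the group mean (line), WT in grey and cKO in red. Mki67 reaches 172.7 and 173.3 in cKO 4 h, and the WT 4 h points of Cdk1 lie apart, at 19.9 and 31.3.

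The rest of the pathway was read from other lists. Of 30 other replication genes, 3 were higher (background 12.7%) and 2 lower (background 6.42%) in cKO at 4 h, and 1 was higher at 0 h (background 3.88%). After median-centring 2 were higher (background 9.57%) and 5 lower (background 10.2%) at 4 h. Without WT 4 h replicate 2 the counts were 8 and 2 (backgrounds 17.8% and 4.97%), and without WT 4 h replicate 1 they were 1 and 7 (backgrounds 9.86% and 9.15%). The higher genes were Cdc7, the kinase that fires origins (0.77 at 4 h and 0.68 at 0 h), the polymerase subunit Pola2 (0.68) and the histone chaperone subunit Chaf1b (0.79), and the lower ones were Rpa3 of the single-strand binding complex (-1.27) and the histone chaperone Asf1b (-1.02). Pola2 (0.58) and Chaf1b (0.55) were not called without WT 4 h replicate 1. Of 30 other mitosis genes 0 were higher and 2 lower in cKO at 4 h (the same backgrounds), the centromeric histone Cenpa (-1.07) and the kinesin Kif4 (-0.94), and 26 of 30 were below 0 with a median of -0.31. After median-centring 10 of them were lower (background 10.2%). Without WT 4 h replicate 2 the median was -0.05, with 2 higher and 2 lower, and without WT 4 h replicate 1 it was -0.81, with 0 higher and 15 lower (the backgrounds of those fits are given above). At 0 h, 0 of these 30 were called in either direction, with a median of 0.02. On stimulation at equal totals 15 of the other replication genes were lower in WT (background 62.3%) and 19 in cKO (background 60.8%), and 18 and 25 of the other mitosis genes were. After median-centring these counts were 6 and 7 for replication and 4 and 9 for mitosis (backgrounds 29.7% and 29.4%). The WT changes turned on the WT 4 h sample. At equal totals the mitosis median was -0.93 in WT and -1.42 in cKO. The WT median was -0.51 without WT 4 h replicate 1 and -1.24 without WT 4 h replicate 2. The replication median was -0.66 in WT (-0.34 and -1.06 in the same order) and -0.77 in cKO.

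The inhibitors of the cyclin-dependent kinases were measured beside these genes at equal totals. Cdkn1a, which encodes p21, rose from 151.5 and 151.0 to 2771 and 2576 in WT (log2 4.14) and from 136.9 and 134.3 to 2659 and 2606 in cKO (log2 4.28), and did not differ by more than 0.16 between genotypes at either time. Cdkn1c, which encodes p57, was higher in cKO at both times. It was at 31.6 and 26.0 in WT against 127.0 and 84.7 in cKO at 0 h (log2 1.85, adjusted p = 0.00714), and at 1.77 and 1.81 against 15.3 and 14.5 at 4 h (log2 2.99, adjusted p = 0.00115). Cdkn1b, which encodes p27, was higher in cKO at 4 h (0.64, adjusted p = 0.0113), but after median-centring its fold was under the threshold (0.51). Both Cdkn1c and Cdkn1b stayed called at 4 h when either WT 4 h sample was left out. Cdkn2c fell on stimulation (-1.99 in WT and -2.28 in cKO), and Cdkn2d differed by -0.41 and -0.47. Cdkn2a and Cdkn2b were below the filter on low values.

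The genes of G1 and of the growth signal moved in both directions at equal totals. Csf1r, the receptor for M-CSF, was at 2457 and 2796 in WT against 1577 and 1707 in cKO at 0 h (log2 -0.68, adjusted p = 0.0205). It fell on stimulation by 1.56 on the log2 scale in WT and fell by 1.14 in cKO, calls that median-centring ended. Cyclin D1 (Ccnd1) was lower in cKO at 0 h, at 20.3 and 18.2 against 33.9 and 36.9 (log2 -0.88, adjusted p = 0.0464), and rose on stimulation in cKO (1.54). Cyclin D2 (Ccnd2) went from 1.23 and 1.23 to 140.7 and 151.0 in WT (log2 6.78) and changed by 7.77 in cKO, and Cdk6 rose by 1.82 and 1.78. Myc changed by -2.44 in WT and by -2.34 in cKO, Cdk4 by -1.26 and -1.37, and Csf1, which encodes M-CSF, by 4.15 and 3.52. Ccnd3 fell in WT (-1.16) and differed by -0.32 in cKO. The falls of Cdk4 and Ccnd3 were not called after median-centring. Between genotypes at 4 h, 0 of these 8 genes were called (backgrounds 12.7% higher and 6.42% lower), and without WT 4 h replicate 2 Ccnd1 (0.73) and Ccnd3 (0.64) were higher in cKO (background 17.8%). Of the 15 pocket proteins, repressor E2Fs and DREAM genes, Rb1 was lower in cKO at 4 h (-0.69) and the DREAM subunits Lin54 (0.79) and Lin52 (0.89) were higher, with Lin52 higher at 0 h too (0.84). That is 2 of 15 higher (background 12.7%) and 1 lower (background 6.42%). Neither Lin54 (0.58) nor Lin52 (0.87, adjusted p = 0.0604) was called without WT 4 h replicate 1, and without WT 4 h replicate 2 Rb1 was not (-0.58, adjusted p = 0.0514). Of 10 p53 target genes, 3 were higher in cKO at 4 h (background 12.7%), namely Sesn2 (1.61), Trp53inp1 (1.52) and Bbc3 (0.73), and 0 were called at 0 h. Their median difference at 4 h was 0.36. It was 0.04 without WT 4 h replicate 1, with 2 higher (background 9.86%) and 1 lower (background 9.15%) and Bbc3 not called (0.51). It was 0.62 without WT 4 h replicate 2, with 5 higher (background 17.8%) and 0 lower (background 4.97%), where the median of all genes was 0.18.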

How the data were processed

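Total RNA-seq was analysed for 8 BMDM samples in 4 groups, assigned from their titles. Samples at 0 h, whose labels carry the stimulation tag as well, were treated as unstimulated. The submitters' processing notes name HISAT2 2.2.1, StringTie 2.1.7 and mm10/GRCm38. The deposited tables hold a coverage signal per gene for each sample, which the authors did not scale between samples. The unit is not named and was read from the values: 28.52% of 6490 low values times transcript length lay within 0.02 of a whole number, against 4% by chance. The tables also hold the authors' fold changes, p-values and classes, which were not used. There were 0 columns of other samples.

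Each sample was divided by its sum and multiplied by 1000000. Genes with a mean of at least 0.5 (12304 genes, all 53 members among them) were compared as log2(value + 0.1) with limma 3.58.1 in R 4.3.3, with 4 group means and 4 residual degrees of freedom, so fold changes of low genes are understated. Calls needed a fold change above 1.5 and a Benjamini-Hochberg adjusted p under 0.05, and the interaction at an adjusted p under 0.05. The study's methods used an unadjusted p, which was an alternative, as were other scalings, filters and left-out samples. Fits of the other gene lists, and interaction medians by role, without each WT 4 h sample were added after seeing the data. The members and gene lists were chosen with earlier results of these data known. Genes named singly were those of largest and smallest change in each role and those called between genotypes. Kif23, Ccnb2 and Pcna levels were followed across comparisons after their values were seen.

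The files hold coverage and no read counts per gene, so no counting interval was computed. With 2 samples per group, an exact permutation test cannot go below p = 0.333, and p-values measure the spread between pools of mice. Coverage is averaged over a gene's length, and the effect of changed transcript ends on it was not tested. The fit was tested on simulated data for cKO against WT at 4 h over 11887 genes. It called 54.2% of genes with a log2 change of 1 and 82.7% of those with 2. All simulated samples had the WT 0 h levels, with noise drawn separately for each gene. They held no change on stimulation and no gap shared by the genes of a library. These percentages therefore do not measure detection in the real 4 h samples. Positions are from GENCODE M21 on GRCm38, and promoter sequences from RefSeq on GRCm38.p6. Some marker genes are not reported here.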

Additional observations from a re-analysis of the deposited data

Results flagged for a closer look

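For 4 of the 53 genes both cKO samples lay on one side of both WT samples at 0 h and on the other side at 4 h, which was also so for 11.9% of all genes tested. Kif23 was higher in cKO at 0 h (log2 0.75) and lower at 4 h (-0.60), a difference between the times of -1.34 (adjusted p = 0.0511). E2f2 was lower at 0 h (-0.36) and higher at 4 h (0.51), a difference of 0.87 (adjusted p = 0.0931). Ccne1 was lower at 0 h (-0.21) and higher at 4 h (0.23), a difference of 0.44 (adjusted p = 0.144). E2f8 was higher at 0 h (0.15) and lower at 4 h (-0.21), a difference of -0.36 (adjusted p = 0.336). None of these 4 differences passed the interaction test of limma at equal totals.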

How the results depend on the processing

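Counts of called members moved with the scaling and with single samples. For cKO higher at 0 h (1 gene) the count was 2 on the deposited scale (6.04% of all genes were) and after median-centring (4.4%), 3 after quantile normalization (5.79%), 0 without the filter (2.61%) and 3 with the unadjusted p (5.97%), and it ranged from 0 to 1 with single samples left out. The count of lower genes at 0 h stayed at 0 in every setting. For cKO higher at 4 h (3 genes) it was 6 on the deposited scale (22.4% of all genes were), 1 without the filter (6.99%) and 1 with the 4 samples alone (9.97%), and ranged from 1 to 6 with samples left out. For cKO lower at 4 h (2 genes) it was 1 on the deposited scale (3.89% of all genes were), 10 after median-centring (10.2%), 8 after quantile normalization (8.03%), 1 without the filter (3.37%), 4 with a mean of at least 2 (6.95%), 6 with an intensity trend (6.74%), 0 with the 4 samples alone (4.85%) and 7 with the unadjusted p (8.43%), and ranged from 0 to 23, the last without WT 4 h replicate 1 (9.15%). On stimulation of WT, 22 and 26 genes were higher after median-centring and quantile normalization (33.2% and 24.8% of all genes; 4 members at equal totals) and 7 were lower in both (29.7% and 34.6%; 24), with ranges of 3 to 10 and 18 to 36. In cKO, 14 and 18 were higher (30.4% and 23.5%; 6) and 10 and 9 lower (29.4% and 34.8%; 28), with ranges of 5 to 5 and 21 to 22. The positive interaction (0 genes) was called for 3 with the unadjusted p (17.4%) and ranged from 0 to 4, the last without WT 4 h replicate 2 (10.6%). The negative interaction (0) was called for 1 on the deposited scale (1.52%), 1 after median-centring (3.49%), 2 after quantile normalization (3.1%), 1 with pseudocount 1 (3.43%), 1 with a mean of at least 2 (2.6%), 1 with an intensity trend (3.43%) and 2 with the unadjusted p (8.23%), and ranged from 0 to 6, the last without WT 4 h replicate 1 (2.33%).

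After median-centring, which shifts all genes of a sample alike, the change on stimulation turned from negative to positive for 22 of the 53 genes in WT and 20 in cKO, and for 0 the other way. Quantile normalization turned 24 and 25. Among the genes named singly by rule, the values were positive after median-centring and quantile normalization for Mybl2 in WT (0.76 and 1.09) and cKO (0.96 and 1.28), Aurka in WT (1.10 and 1.41) and cKO (0.80 and 1.08), Cdc45 in WT (0.93 and 1.25), Cdk1 in cKO (0.65 and 0.68), Tk1 in cKO (0.18 and 0.33) and Rrm2 in cKO (0.96 and 1.03), and for Rrm1 in WT after median-centring (0.96). The replicate numbers recur at both times within a genotype, with correlations of 0.12 and 0.09, which does not show that they pair the samples. With the replicate block the stimulation counts were 6 higher and 23 lower in WT (13.9% and 62.3% of all genes) and 5 and 31 in cKO (14.4% and 60.8%), and the interaction counts stayed at 0, with 2 positive and 4 negative among all genes. WT and cKO share no number. The cause of these changes was not tested.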
